A study of Mus musculus with 16 samples.

Results

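The taste receptor genes of the mouse are the Tas1r family, whose products pair up into sweet and umami receptors, and the Tas2r family of bitter receptors. Members were all genes whose symbol begins with Tas1r or Tas2r and a digit, which gave 38 of the 43432 genes counted, 3 of them Tas1r and 35 Tas2r. Of these, 36 had 15 or more reads over all libraries and are described here. The members just inside that limit were Tas2r139 with 15 reads and Tas2r120 with 32, and those just outside were Tas2r122 with 14 and Tas2r114 with 11.

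RNA was sequenced from medullary thymic epithelial cells (mTEC), which show self antigens to developing T cells and were sorted as live CD45- EPCAM+ cells. All mice were of the strain C57BL6.Aire-CreERT2.Ai14, aged 5 to 6 weeks and of mixed sex, and all received 2 mg tamoxifen 7 days earlier. In this strain a tamoxifen-dependent Cre sits under the control of Aire, the factor that drives antigen expression in mature mTEC, and the Ai14 reporter turns cells with active Cre permanently red (RFP). RFP+ cells are therefore cells that expressed Aire around the pulse and their descendants, whereas RFP- cells may have expressed Aire at other times. Gates on RFP and on MHC class II at the surface, high (MHCIIhi) or low (MHCIIlo), gave 4 populations with 4 libraries each and 12 thymi pooled per library. The comparisons ask what Aire-lineage cells express once MHC class II is low, and how they differ from unlabelled cells of the same gate. The labels number the libraries of a population but do not say that they came from separate pools or sorts, so p-values measure the spread between these libraries, which may be technical.

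Tas1r and Tas2r proteins are G protein-coupled receptors. Tas1r3 joins Tas1r1 to form the umami receptor and Tas1r2 to form the sweet receptor, while Tas2r receptors each respond to their own range of bitter compounds. In taste cells and in tuft cells, the chemosensory epithelial cells of gut, airway and thymus, these receptors signal through the G protein gustducin (Gnat3) and the phospholipase Plcb2 to the cation channel Trpm5. Tuft cells depend on the transcription factor Pou2f3 and carry the kinase Dclk1.

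Libraries held 7.93 to 19.46 M counted reads, of which 38 to 78 in each RFP- MHCIIhi library and 1175 to 2001 in each RFP+ MHCIIlo library fell on Tas2r genes. The MHC class II gate held as labelled for H2-Aa, a class II gene, and Aire went with it. In RFP- cells Aire was at 979 ± 56.1 CPM (reads scaled to the library's size, corrected by TMM) in MHCIIhi and 37.9 ± 23.5 in MHCIIlo. H2-Aa was at 4703 ± 157 and 1320 ± 291 there (SD, n = 4 each). In RFP+ cells Aire was at 587 ± 32.5 and 50.8 ± 25.35 CPM, and H2-Aa at 5381 ± 395.5 and 960.9 ± 186.9. Aire in each RFP+ MHCIIhi library (543 to 622 CPM) was below every RFP- MHCIIhi library (916 to 1041 CPM). The RFP gate was not checked here. Between 19400 and 20500 cells were sorted for each RFP+ MHCIIlo library, and 80500 or more for each of the others. Within RFP+ MHCIIlo, replicates 1 and 4 stood apart on principal components 3 and 4 of the 500 most variable genes, with scores of -10 for replicate 1 on component 3 and 9.6 for replicate 4 on component 4. Transcripts of other cells were present in every population. The 12 thymocyte markers summed to 366 to 839 CPM in unlabelled and 102 to 173 CPM in labelled MHCIIhi cells, and to 46.2 to 72.6 CPM in unlabelled and 61.4 to 147 CPM in labelled MHCIIlo cells. The 6 mesenchymal markers summed to 418 to 958 CPM in unlabelled and 52.4 to 159 CPM in labelled MHCIIlo cells. In bulk RNA, fewer cells of a type and less RNA per cell cannot be told apart.

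Members were uneven in how well they can be told from their relatives. All 35 Tas2r genes lie in 1 exon, and for all but 4 of them no stretch of 50 bases occurs in another annotated transcript. Those 4 lie in a cluster on chromosome 6. Tas2r117 shared 38.59% of its 50-base stretches, mostly with pseudogenes, and Tas2r123, Tas2r110 and Tas2r109 shared 7.66, 7.45 and 5.99%. Tas2r110 and Tas2r123 have an exact run of 120 bases in common, at bases 596 to 715 of both GENCODE transcripts, and it is shown because reads within it belong to either gene alike.
Tas2r110 and Tas2r123: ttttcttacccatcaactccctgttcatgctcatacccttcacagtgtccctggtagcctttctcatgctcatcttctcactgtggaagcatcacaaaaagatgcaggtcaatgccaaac
Tas1r2 shared 46.4% of its stretches with Gm21969, a predicted gene on the same strand that overlaps 1510 of its exon bases and had 2 to 5 reads per population. Tas1r3 overlaps Dvl1, on the opposite strand, by 36 exon bases. The labels do not state how reads on such stretches were assigned, and values of Tas1r2, Tas2r109, Tas2r110, Tas2r117 and Tas2r123 are uncertain to that extent. The library kit does not mark strand, so Dvl1 reads on the 36 shared of 3523 exon bases could also be counted for Tas1r3. How many were was not measured.

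As a sum, Tas2r transcripts were highest in the MHCIIlo gate, and most of all in its RFP+ cells. Single taste receptor genes varied: 10 of 36 members were higher and 1 lower in RFP+ than in RFP- MHCIIlo without overlap, and 25 overlapped. Among all genes with 15 or more reads, 16.2% were higher and 13.8% lower without overlap, so overlap was about as common there. By their mean, 8 members were lower in RFP+ MHCIIlo, and the share over all genes was not computed. Summed over the 35 Tas2r genes, the level was 3.64 ± 0.857 CPM in RFP- MHCIIhi, 18.4 ± 2.05 in RFP+ MHCIIhi, 95.5 ± 22.4 in RFP- MHCIIlo and 166 ± 34.0 in RFP+ MHCIIlo (SD, n = 4 each). The lowest library of RFP+ MHCIIlo (141 CPM) stood above the highest of RFP- MHCIIlo (128 CPM), so no populations overlapped. The number of Tas2r genes with a read was 20 to 26 per library in RFP- MHCIIhi, 28 to 30 in RFP+ MHCIIhi and 32 to 34 in both MHCIIlo populations. Expression was spread over the family: 5 or 6 genes made up 50% of the Tas2r reads in each population, and 17 to 23 made up 90%. The gene with most Tas2r reads was Tas2r138 in the RFP- populations, with 15.0% of them in MHCIIhi and 12.2% in MHCIIlo. In the RFP+ populations it was Tas2r108, with 20.2% in MHCIIhi and 18.0% in MHCIIlo.

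**Figure D1:**
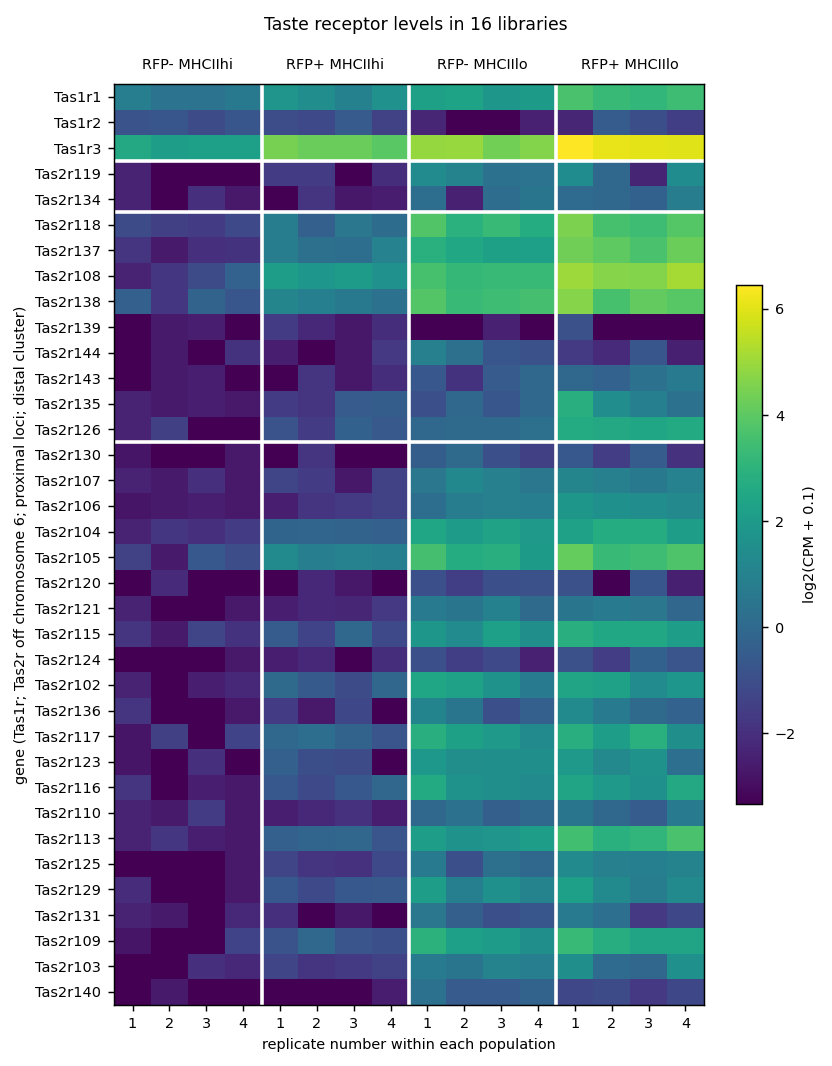
Level of the 36 members with 15 or more reads in each of 16 libraries, as log2(CPM + 0.1) on the colour scale, with genes in chromosome order within each family or locus (rows) and libraries by population (columns). Nearly all rows are dark in the MHCIIhi populations and bright in the MHCIIlo populations, and Tas1r2 is the reverse in RFP- cells.

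Tas1r3 (ENSMUSG00000029072, chr4:155859268-155863362 on the minus strand of GRCm38), the subunit that the sweet and umami receptors share, was the best expressed Tas1r gene. Its libraries read 5.80, 4.39, 4.45 and 4.48 CPM in RFP- MHCIIhi, 21.6, 18.4, 18.6 and 15.5 in RFP+ MHCIIhi, 29.6, 30.3, 20.7 and 24.5 in RFP- MHCIIlo, and 87.2, 69.2, 66.3 and 62.9 in RFP+ MHCIIlo. RFP+ MHCIIlo lay above all other libraries and RFP- MHCIIhi below them, while RFP+ MHCIIhi and RFP- MHCIIlo overlapped. In MHCIIlo cells Tas1r3 rose with the label by 1.44 on the log2 scale (SE 0.13, adjusted p = 1.5e-09), and in MHCIIhi cells by 1.94 (SE 0.15, adjusted p = 2.1e-10). With low against high MHC class II it rose by 1.95 (SE 0.13) in RFP+ and by 2.44 (SE 0.15) in RFP- cells. The P values are from edgeR's quasi-likelihood test over all tested genes with Benjamini-Hochberg adjustment, here and throughout.

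Tas1r1 (ENSMUSG00000028950, chr4:152027914-152038568, minus strand), the subunit particular to the umami receptor, showed the same order at lower levels. The values were 1.72, 1.23, 1.23 and 1.44 CPM in RFP- MHCIIhi, 3.35, 2.68, 1.87 and 2.95 in RFP+ MHCIIhi, 4.57, 4.92, 3.497 and 3.96 in RFP- MHCIIlo, and 12.4, 9.51, 8.725 and 10.6 in RFP+ MHCIIlo. No 2 populations overlapped. With the label, Tas1r1 rose by 1.29 (SE 0.20, adjusted p = 8.1e-06) in MHCIIlo and by 0.91 (SE 0.23, adjusted p = 0.0022) in MHCIIhi cells. Per 100 Tas1r3 reads there were 14.5 ± 1.64 Tas1r1 reads in RFP+ MHCIIlo, 16.2 ± 0.575 in RFP- MHCIIlo, 14.8 ± 3.70 in RFP+ MHCIIhi and 29.3 ± 2.04 in RFP- MHCIIhi. Each RFP- MHCIIhi library (27.6 to 32.1) was above every other library (10.0 to 19.0).

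Tas1r2 (ENSMUSG00000028738, chr4:139653538-139670280, plus strand), the subunit particular to the sweet receptor, did not follow this order. Its libraries were at 0.464, 0.516, 0.384 and 0.517 CPM in RFP- MHCIIhi, 0.390, 0.350, 0.604 and 0.281 in RFP+ MHCIIhi, 0.106, 0, 0 and 0.086 in RFP- MHCIIlo, and 0.108, 0.609, 0.416 and 0.249 in RFP+ MHCIIlo. RFP- MHCIIlo, with 2 reads in all, was below every other population, and the other populations overlapped. Its highest library and the lowest of RFP+ MHCIIlo held 1 read each, so these 2 parted only by scaling. The ratio of RFP- MHCIIhi to RFP- MHCIIlo was 10.6, with an exact 95% interval of 2.69 to 90.9 that covers counting error only. Tas1r2 was too low for the filter of the main test. In a fit without that filter it was lower in RFP- MHCIIlo than in RFP- MHCIIhi (adjusted p = 0.0021) and higher in RFP+ than in RFP- MHCIIlo (adjusted p = 0.033, on 13 against 2 reads). Per kb of exon, Tas1r2 was at 0.113 CPM in RFP+ MHCIIlo, against 3.604 for Tas1r1 and 20.3 for Tas1r3.

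Of the Tas2r genes, 33 lie on chromosome 6, in 2 regions. The proximal loci, at chr6:23969161-42435464, hold 9 of them: Tas2r118, the pair Tas2r137 and Tas2r108 that lie 1224 bp apart, Tas2r138, Tas2r139, Tas2r144, and the trio Tas2r143, Tas2r135 and Tas2r126. The distal cluster, at chr6:131629823-133055816, holds 24. Tas2r119 on chromosome 15 and Tas2r134 on chromosome 2 stand alone. The division into proximal and distal genes was made after values had been seen.

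Tas2r108 (ENSMUSG00000037140, chr6:40493529-40494541, plus strand), a bitter receptor of the proximal loci, had the highest mean Tas2r level over the 16 libraries, although Tas2r138 was higher by its mean in both RFP- populations. Its libraries were at 0.093, 0.194, 0.384 and 0.746 CPM in RFP- MHCIIhi, 4.37, 3.44, 4.01 and 2.95 in RFP+ MHCIIhi, 12.1, 8.99, 9.47 and 9.38 in RFP- MHCIIlo, and 32.2, 25.2, 24.7 and 35.3 in RFP+ MHCIIlo. The populations were in this order with no overlap. With the label it rose 2.95-fold in MHCIIlo cells (log2 1.56, SE 0.19, adjusted p = 2.8e-07) and 10.5-fold in MHCIIhi cells (log2 3.39, SE 0.33, adjusted p = 9e-09). The neighbouring Tas2r137 (ENSMUSG00000052850) showed 7.23, 5.77, 4.61 and 4.47 CPM in RFP- MHCIIlo and 19.99, 15.97, 12.36 and 18.82 in RFP+ MHCIIlo. These groups did not overlap either, and the rise was 1.61 (SE 0.20, adjusted p = 4.2e-07). In RFP- and RFP+ MHCIIhi the means of Tas2r137 were 0.144 and 1.42 CPM.

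The other proximal genes with high levels, Tas2r138 (ENSMUSG00000058250) and Tas2r118 (ENSMUSG00000043865), moved less with the label. Tas2r138 was at 14.2, 9.59, 10.7 and 11.9 CPM in RFP- MHCIIlo and 25.5, 12.2, 17.2 and 14.9 in RFP+ MHCIIlo. Tas2r118 was at 13.8, 7.55, 9.72 and 6.54 CPM in RFP- MHCIIlo and 22.6, 12.1, 10.7 and 14.5 in RFP+ MHCIIlo. For both genes the groups overlapped, and RFP+ MHCIIlo replicate 1 was the highest library. The rises of 0.60 (SE 0.21, adjusted p = 0.021) and 0.68 (SE 0.24, adjusted p = 0.02) passed the test with all libraries. Without RFP+ MHCIIlo replicate 1 they were 0.36 (adjusted p = 0.14) and 0.41 (adjusted p = 0.13) and did not pass. Leaving out RFP- MHCIIlo replicate 2 also ended both calls, at differences of 0.51 (adjusted p = 0.071) and 0.59 (adjusted p = 0.067). The call of Tas2r138 ended without replicate 3 of that population (0.56, adjusted p = 0.054) and that of Tas2r118 without replicate 4 (0.54, adjusted p = 0.075).

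Tas2r126 (ENSMUSG00000048284, chr6:42434535-42435464, plus strand), the last gene of the proximal loci, had the largest label difference of any tested Tas2r gene in MHCIIlo cells. It was at 0.850, 0.933, 0.938 and 1.12 CPM in RFP- MHCIIlo and at 6.27, 5.85, 5.40 and 6.22 in RFP+ MHCIIlo. The 4 labelled libraries were close together and each was several times above the unlabelled ones, which is a 6.11-fold rise (log2 2.61, SE 0.35, adjusted p = 1.3e-06). RFP+ MHCIIhi was at 0.468, 0.233, 0.713 and 0.561 CPM, below every RFP- MHCIIlo library. Tas2r135 (ENSMUSG00000056203), 28009 bp from Tas2r126, was at 0.425, 0.848, 0.512 and 0.860 CPM in RFP- MHCIIlo and 7.02, 2.68, 1.77 and 1.16 in RFP+ MHCIIlo. The groups did not overlap, but the labelled libraries were far apart, and replicate 1 gave the highest value. The rise was 2.21 (SE 0.51, adjusted p = 0.00076), and 1.44 to 2.50 over 15 alternatives that all kept the call. Tas2r143 (ENSMUSG00000046652), 4315 bp from Tas2r135, was at 0.532, 0.170, 0.597 and 0.860 CPM in RFP- MHCIIlo and 0.864, 0.731, 1.14 and 1.57 in RFP+ MHCIIlo. Its groups overlapped, and the difference of 1.02 (SE 0.51, adjusted p = 0.096) did not pass the test. Together the trio made up 1.41 to 3.69% of Tas2r reads in RFP- MHCIIlo libraries and 5.40 to 6.62% in RFP+ MHCIIlo libraries, with no overlap.

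**Figure D2:**
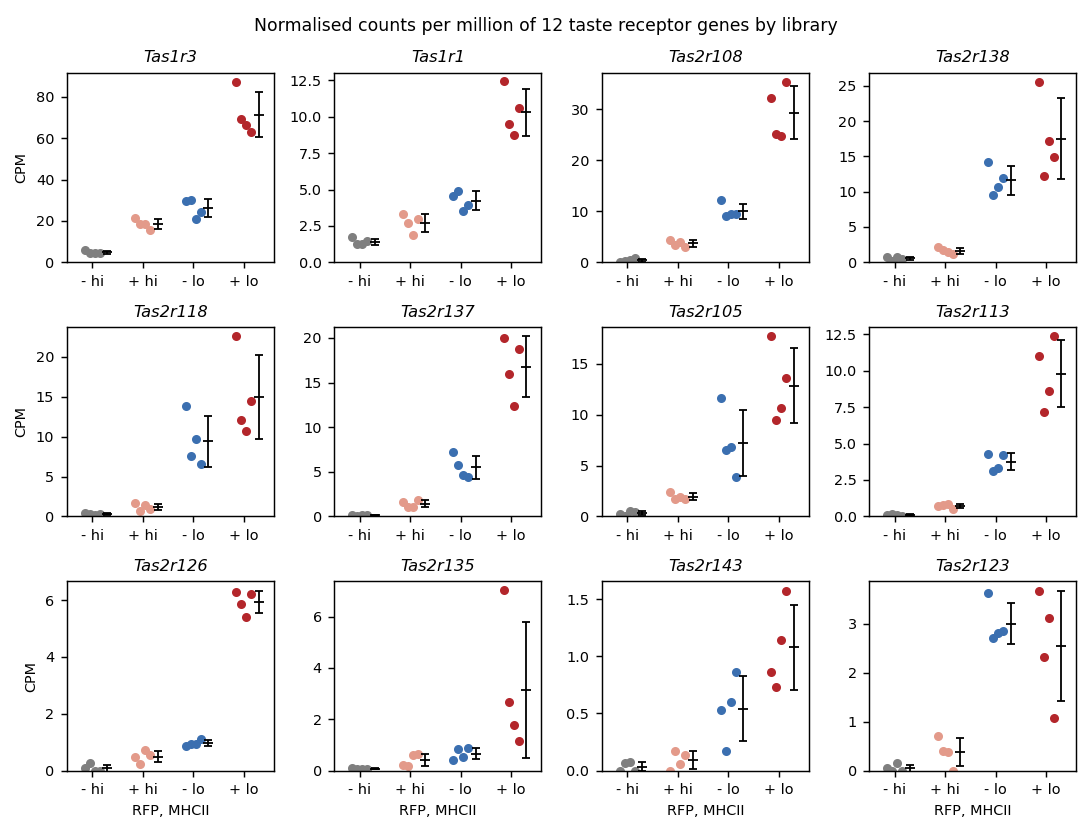
CPM (y axis, from 0) of 12 taste receptor genes in the 4 libraries of each population (x axis; - and + for RFP, hi and lo for MHC class II), with the mean and SD beside the points. Tas2r108, Tas2r137, Tas2r126 and both Tas1r genes separate RFP+ MHCIIlo from RFP- MHCIIlo, whereas the groups of Tas2r138, Tas2r118, Tas2r105, Tas2r143 and Tas2r123 overlap.

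The distal cluster holds 2 of the 6 Tas2r genes with the highest mean CPM, Tas2r105 and Tas2r113. Tas2r105 (ENSMUSG00000051153, chr6:131686532-131687495, minus strand), known as the receptor for cycloheximide, was at 11.7, 6.53, 6.82 and 3.87 CPM in RFP- MHCIIlo and 17.7, 9.51, 10.7 and 13.6 in RFP+ MHCIIlo. One unlabelled library reached into the labelled range. The rise was 0.85 (SE 0.26, adjusted p = 0.0093), and 0.50 (adjusted p = 0.17) without RFP+ MHCIIlo replicates 1 and 4. Tas2r113 (ENSMUSG00000056926) was at 4.25, 3.14, 3.33 and 4.21 CPM in RFP- MHCIIlo and 11.02, 7.19, 8.62 and 12.35 in RFP+ MHCIIlo. It was the distal gene with the largest rise, 1.40 (SE 0.22, adjusted p = 9.2e-06), with no overlap. Tas2r123 (ENSMUSG00000057381), the tested Tas2r gene with the lowest label difference in MHCIIlo cells, was at 3.61, 2.71, 2.82 and 2.84 CPM in RFP- MHCIIlo and 3.67, 2.32, 3.12 and 1.08 in RFP+ MHCIIlo. The groups overlapped, and its difference of -0.25 (SE 0.42, adjusted p = 0.65) did not pass the test.

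Over all members, RFP+ MHCIIlo exceeded RFP- MHCIIlo without overlap for 10 of 36 and was below it for 1, against 16.2 and 13.8% of all genes with 15 or more reads. The 10 were Tas1r1, Tas1r2, Tas1r3, 4 of 9 proximal genes (Tas2r108, Tas2r126, Tas2r135 and Tas2r137) and 3 of 22 distal genes (Tas2r106, Tas2r113 and Tas2r125). For Tas1r2 the groups parted only by scaling, since the closest library of each, replicate 1, held 1 read. By the mean, 28 members were higher and 8 lower, and the share over all genes was not computed. In the edgeR test, 13 of the 28 members that passed the filter on low counts rose and 0 fell, against 28.9 and 22.7% of all tested genes. With no filter, 12 of 36 rose and 1 fell (16.2 and 11.9% of all genes), and Tas2r106 (adjusted p = 0.1) and Tas2r125 (0.094) were not called. Without RFP+ MHCIIlo replicate 1, 8 of 28 tested members rose, against 29.2% of all tested genes. Without replicates 1 and 4, 7 of 30 tested members rose and 1 fell, against 26.3 and 20.4%. The 7 were Tas1r1, Tas1r3, Tas2r108, Tas2r113, Tas2r126, Tas2r135 and Tas2r137, and Tas2r119 fell. In neither of these 2 fits did members rise more often than all tested genes. The filter admits a member through the population where it is high, so these counts describe the members that passed and not the family.

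The label difference in MHCIIlo cells varied along chromosome 6. In the fit with no filter, the 9 proximal genes differed by -2.0 to 2.61 (median 1.56), of which 6 rose and Tas2r144 fell, and the 22 distal genes with 15 or more reads by -1.32 to 1.39 (median 0.25), of which 3 rose and 0 fell. Among the genes that passed the filter, the 7 proximal ones had 6 calls and the 17 distal ones 5, but the filter left out Tas2r144 and Tas2r139, so the range of these 7 (0.60 to 2.61) omits the proximal gene that fell. In MHCIIhi cells the medians with no filter were 1.90 for the proximal and 1.91 for the distal genes. The proximal loci gave 39.8 to 46.2% of the Tas2r reads of RFP- MHCIIlo libraries and 52.3 to 55.8% of those of RFP+ MHCIIlo libraries, with no overlap. Leaving out Tas2r108 gave 33.4 to 38.7% and 42.1 to 45.6%, again with no overlap. In the MHCIIhi populations the proximal share was 42.3 to 50% without and 45.8 to 51.0% with the label, which overlapped, on 38 to 78 and 243 to 334 Tas2r reads per library.

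**Figure D3:**
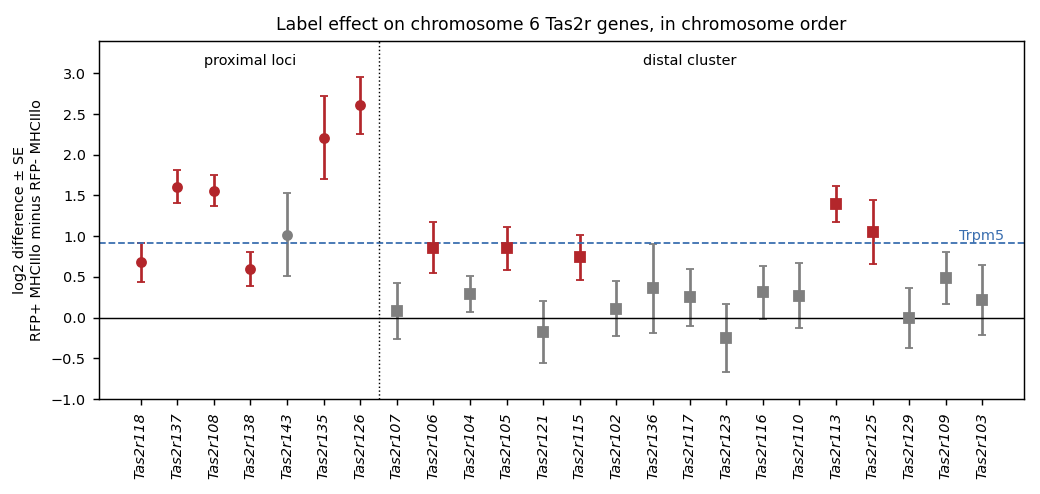
Log2 difference between RFP+ and RFP- MHCIIlo with its standard error (y axis) for the 24 tested Tas2r genes of chromosome 6, in chromosome order (x axis), red where the adjusted p was under 0.05 and grey otherwise. The tested proximal genes (circles; Tas2r139 and Tas2r144 were not tested) lie at 0.60 to 2.61 and the distal genes (squares) at -0.25 to 1.40, and the dashed line marks Trpm5 at 0.92.

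Tas2r140 and Tas2r144, both of low level, were lower with the label by their means and were chosen for mention after their values were seen. Tas2r140, at the end of the distal cluster, was at 1.17, 0.594, 0.597 and 0.774 CPM in RFP- MHCIIlo and 0.324, 0.366, 0.208 and 0.332 in RFP+ MHCIIlo, with no overlap. Tas2r144, a proximal gene, was at 1.81, 1.10, 0.512 and 0.430 CPM in RFP- MHCIIlo and 0.216, 0.122, 0.519 and 0.083 in RFP+ MHCIIlo, and 1 labelled library reached into the unlabelled range. Neither passed the filter. Without it, Tas2r144 fell by 2.00 (SE 0.75, adjusted p = 0.027), on 41 against 9 reads, and Tas2r140 differed by -1.32 (SE 0.74, adjusted p = 0.18), on 34 against 12 reads.

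The start regions of the proximal genes are shown because the largest label differences in MHCIIlo cells, those of Tas2r126 and Tas2r135, were among them. RefSeq (GRCm38.p6) gives 300-base windows, from 250 bases before to 50 after each start, for 34 of the 38 members. Some gene models hold little beyond coding sequence, with 900 exon and 897 coding bases for Tas2r118 and 960 and 957 for Tas2r144. The start of such models may be that of the coding sequence and not of transcription. Where transcription starts was not measured, so windows of different genes may not match in position. The octamer ATGCAAAT, the classical recognition sequence of POU-domain factors, the family of Pou2f3, was searched on both strands. It occurred in 7 of the 34 windows (20.6%), against 2.64% of 948 windows of olfactory receptor genes and 1.74% of all 32851 windows. It was in 6 of 9 proximal and 1 of 20 distal windows. Each sequence is printed along the gene's strand with the match in capitals. The 6 proximal matches read as the complement, 116 to 186 bases before the start, and the distal match reads in the other orientation.
Tas2r118, chr6:23970151-23970210, minus strand: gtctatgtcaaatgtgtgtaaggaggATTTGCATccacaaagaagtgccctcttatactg
Tas2r137, chr6:40491020-40491079, plus strand: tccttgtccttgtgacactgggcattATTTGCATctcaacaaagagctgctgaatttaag
Tas2r108, chr6:40493420-40493479, plus strand: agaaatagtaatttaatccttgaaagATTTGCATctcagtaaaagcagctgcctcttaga
Tas2r144, chr6:42215145-42215204, plus strand: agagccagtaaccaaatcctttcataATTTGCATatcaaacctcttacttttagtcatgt
Tas2r135, chr6:42405360-42405419, plus strand: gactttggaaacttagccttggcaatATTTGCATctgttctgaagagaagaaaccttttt
Tas2r126, chr6:42434315-42434374, plus strand: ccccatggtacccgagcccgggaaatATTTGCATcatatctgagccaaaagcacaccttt
Tas2r107, chr6:131660352-131660399, minus strand: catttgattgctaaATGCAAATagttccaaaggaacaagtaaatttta

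Genes with the octamer included those with the largest label differences in MHCIIlo cells, Tas2r126 and Tas2r135, and also Tas2r107, which differed by 0.08 (SE 0.34, adjusted p = 0.87), and Tas2r144, which was lower with the label. Tas2r113, with 1.40, had no match in its window. The windows of taste receptor genes were rich in A and T (61.5%), like those of olfactory receptor genes (63.9%) and unlike all windows (46.2%). Shorter spellings, which overlap the octamer, were also searched. ATGCAAA was in 35.3% of taste receptor, 7.28% of olfactory receptor and 4.63% of all windows, TGCAAAT in 26.5, 7.38 and 4.02%, and TGCAAA in 44.1, 21.8 and 15.5%. ATGCAAA was in 8 of 9 proximal and 2 of 20 distal windows. For other motifs the shares of taste receptor windows lay below those of olfactory receptor windows. TATAAA was in 29.4% against 41.0%, and 13.6% of all windows, and CACCTG in 8.82% against 12.9%, and 20.2% of all windows. A match describes the letters in the window, and binding was not measured.

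**Figure D4:**
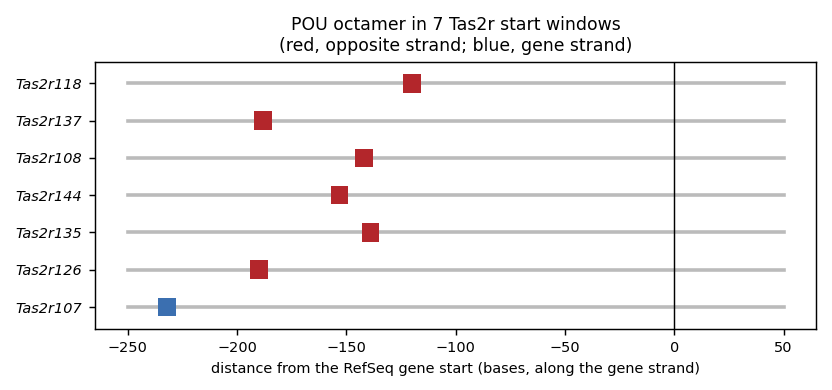
Position of the octamer ATGCAAAT or its complement (squares) in the 7 start windows that hold it, in bases from the RefSeq start along the gene's strand (x axis), with the window as a grey line. The 6 proximal genes, in red, carry it as the complement 116 to 186 bases before the start, and Tas2r107, in blue, carries it 228 bases before the start.

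Low MHC class II went with higher levels of nearly all members, whether or not the cells were labelled. Among RFP+ cells, 30 of 36 members were higher in MHCIIlo without overlap and 0 lower, against 17.2 and 19.8% of all genes with 15 or more reads. Among RFP- cells, 33 were higher and 1 lower, against 24.3 and 29.6%. The member that was lower was Tas1r2. The edgeR test called all 28 tested members higher in both comparisons, where 27.5% (RFP+) and 33.5% (RFP-) of tested genes rose, and these members had passed the filter through the MHCIIlo populations. In the fit with no filter, 32 of 36 rose and 0 fell among RFP+ cells (13.9 and 17.2% of all genes), and 34 rose and 1 fell among RFP- cells (17.5 and 22.3%), the latter again Tas1r2. Tas2r108 rose 7.94-fold in RFP+ (log2 2.99, SE 0.21, adjusted p = 2.7e-11) and 28.2-fold in RFP- cells (log2 4.82, SE 0.30, adjusted p = 1.4e-12). Tas2r105 rose 6.63-fold and 22.3-fold, and Tas2r138 10.8-fold and 20.8-fold. The trio was closer in both: Tas2r126 rose 11.8-fold in RFP+ and 9.92-fold in RFP- cells. In the fit with no filter, Tas2r135 rose by 2.83 (SE 0.48) in RFP+ and 2.99 (SE 0.73) in RFP- cells on the log2 scale. Tas2r143 rose by 3.33 (SE 0.75) and 3.76 (SE 0.98), on few reads. It had 6 reads in RFP+ MHCIIhi and 44 in RFP+ MHCIIlo. In RFP- MHCIIhi it had 2 and in RFP- MHCIIlo 24, a ratio of 18.2 (exact 95% interval 4.51 to 159, counting error only).

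Within MHCIIhi cells the label went with higher taste receptor levels from a very low base. All 8 cornified epithelium markers rose with it as well (median 2.48, summed level 172 to 212 CPM without and 971 to 1370 CPM with the label), and their part in the result was not tested. RFP+ lay above RFP- without overlap for 18 of 36 members and below it for 0, against 18.9 and 19.5% of all genes. In the edgeR test 19 of 28 rose and 0 fell (23.8 and 21.2% of tested genes), and without the filter 19 of 36 rose and 0 fell (12.6 and 10.3% of all genes). Tas2r138 was at 0.543 ± 0.256 CPM without and 1.62 ± 0.396 CPM with the label, a rise of 1.54 (SE 0.36, adjusted p = 0.00099). Tas2r118 rose by 1.87 (SE 0.46, adjusted p = 0.0014), Tas2r105 by 2.59 (SE 0.44, adjusted p = 3.4e-05) and Tas2r113 by 2.68 (SE 0.47, adjusted p = 3.7e-05). Tas2r126 rose by 2.36 (SE 0.63, adjusted p = 0.0023), on 6 against 31 reads. Tas2r135 rose by 2.35 (SE 0.84, adjusted p = 0.018), on 5 against 26 reads, and missed the threshold without RFP+ MHCIIhi replicate 3 (adjusted p = 0.061) or replicate 4 (0.053), and in limma-voom (0.076). Tas2r123 had 3 against 23 reads, a ratio of 8.29 (exact 95% interval 2.50 to 43.1), and its adjusted p was 0.074 in limma-voom, above the threshold.

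The difference between the label effects of the 2 gates, tested as an interaction, was negative for 10 of 28 tested members and positive for 0 at the threshold, against 16.6 and 17.5% of all tested genes. A negative value means that the signed log2 difference, RFP+ minus RFP-, was lower in MHCIIlo than in MHCIIhi. Among all genes it can also come from a fall with the label in MHCIIlo cells. The 10 were 8 distal genes (Tas2r102, Tas2r104, Tas2r105, Tas2r109, Tas2r116, Tas2r117, Tas2r123 and Tas2r129) and the proximal pair. For Tas2r108 the difference was -1.83 (SE 0.41, adjusted p = 0.001), for Tas2r137 -1.55 (SE 0.50, adjusted p = 0.015) and for Tas2r105 -1.74 (SE 0.53, adjusted p = 0.012). For Tas2r126, Tas2r135 and Tas1r1 it was 0.25 (SE 0.79), -0.14 (SE 1.06) and 0.37 (SE 0.30), with adjusted p of 0.91, 0.88 and 0.37. For Tas1r3 it was -0.49 (SE 0.20, adjusted p = 0.054), and 7 of 22 alternatives called it, among them the fit with no filter (-0.52, adjusted p = 0.02) and that with the replicate block (-0.51, adjusted p = 0.0086). Without the filter on low counts it was negative for 13 of 36 and positive for 0, against 8.93 and 9.25% of all genes. Without RFP+ MHCIIlo replicates 1 and 4, it was negative for 16 of 30 tested members, among them all of the 10. The share over all genes was not computed for that fit. Most tuft cell markers also had a negative difference, as given below. The gates differ in thymocyte transcripts with the label: all 12 markers fell with it in MHCIIhi cells, and 6 rose and 0 fell in MHCIIlo cells. Their part in these results was not tested.

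Most, but not all, genes of the signalling cascade downstream of the receptors were also higher with the label in MHCIIlo cells. Gnat3, the G protein alpha subunit of taste cells, was at 7.00 ± 1.38 CPM in RFP- MHCIIhi, 55.1 ± 9.90 in RFP+ MHCIIhi, 179 ± 53.9 in RFP- MHCIIlo and 432 ± 80.0 in RFP+ MHCIIlo. It rose with the label in MHCIIlo cells by 1.27 (SE 0.17), Plcb2 by 1.44 (SE 0.14), the channel gene Trpm5 by 0.92 (SE 0.13) and Rgs21, a regulator of G protein signalling found in taste cells, by 1.12 (SE 0.13), with adjusted p from 7.2e-09 to 2.8e-06. Of 20 cascade genes other than receptors, 18 were tested. With the label 12 rose and 2 fell in MHCIIlo cells (Rtp4 by 1.21 and Pde1a by 1.39, named after their values were seen), and 11 rose and 2 fell in MHCIIhi cells, and with low MHC class II 13 rose and 2 fell in RFP+ and 12 rose and 2 fell in RFP- cells. Of 25 tuft cell markers, all tested, 24 rose and 0 fell with the label in MHCIIlo cells (median 0.91), among them Pou2f3 by 1.36 (SE 0.12) and Dclk1 by 0.74 (SE 0.15). With low MHC class II 24 rose and 0 fell in RFP+ and in RFP- cells (medians 2.53 and 3.22), and 20 rose and 0 fell with the label in MHCIIhi cells (median 1.72). The median over taste receptors was 0.54, 3.05, 4.63 and 2.09 in the same comparisons in that order. The difference of label effects was negative for 14 and positive for 3 of the 25 tuft markers (median -0.71). Of the 18 cascade genes, 8 were negative and 1 positive. All tested genes gave 16.6 and 17.5%. The values were -1.68 for Gnat3, -1.17 for Plcb2, -1.65 for Trpm5, -1.46 for Rgs21, -0.89 for Pou2f3 and -0.68 for Dclk1, and the median over taste receptors was -1.41. The summed tuft markers were at 534 to 643 CPM in RFP- MHCIIhi, 955 to 1120 in RFP+ MHCIIhi, 2070 to 3010 in RFP- MHCIIlo, and, highest, 4020 to 5690 in RFP+ MHCIIlo. One listed gene, Spib, named after its values were seen, gave much of the sum in MHCIIhi cells. Its mean was 395.2 of 570 CPM in RFP- MHCIIhi and 352.3 of 1020 in RFP+ MHCIIhi. In RFP- and RFP+ MHCIIlo it was 507.5 of 2470 and 727.8 of 4630 CPM.

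Set against Trpm5 in the same library, the bitter receptors varied far less than in CPM. There were 25.6 ± 6.19 Tas2r reads per 100 Trpm5 reads in RFP- MHCIIhi, 21.6 ± 1.98 in RFP+ MHCIIhi, 32.2 ± 2.96 in RFP- MHCIIlo and 29.4 ± 4.83 in RFP+ MHCIIlo (SD, n = 4 each). Both MHCIIlo populations overlapped (28.0 to 34.9 and 23.5 to 33.6). The 2 regions of chromosome 6 parted on this scale. Distal genes gave 16.02 to 19.7 reads per 100 Trpm5 reads in RFP- MHCIIlo and 11.01 to 14.8 in RFP+ MHCIIlo, with no overlap. Proximal genes gave 11.3 to 15.4 and 12.3 to 18.7, which overlapped. Tas1r3 went in the opposite direction to the distal genes, with 7.51 to 10.6 reads in RFP- MHCIIlo and 11.1 to 13.5 in RFP+ MHCIIlo. In MHCIIhi cells it gave 31.5 to 34.5 reads per 100 Trpm5 reads without and 19.6 to 24.6 with the label. These ratios are sums over members and carry no test. Their direction with the label depends on the unit. From RFP- to RFP+ MHCIIlo the mean of Trpm5 went from 298.5 to 564.9 CPM and that of Tas1r3 from 26.27 to 71.41. Plcb2 rose by more than Trpm5, from 207.1 to 560.8 CPM, and Dclk1 by less, from 467.4 to 779. Ratios to Plcb2 were not taken.

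**Figure D5:**
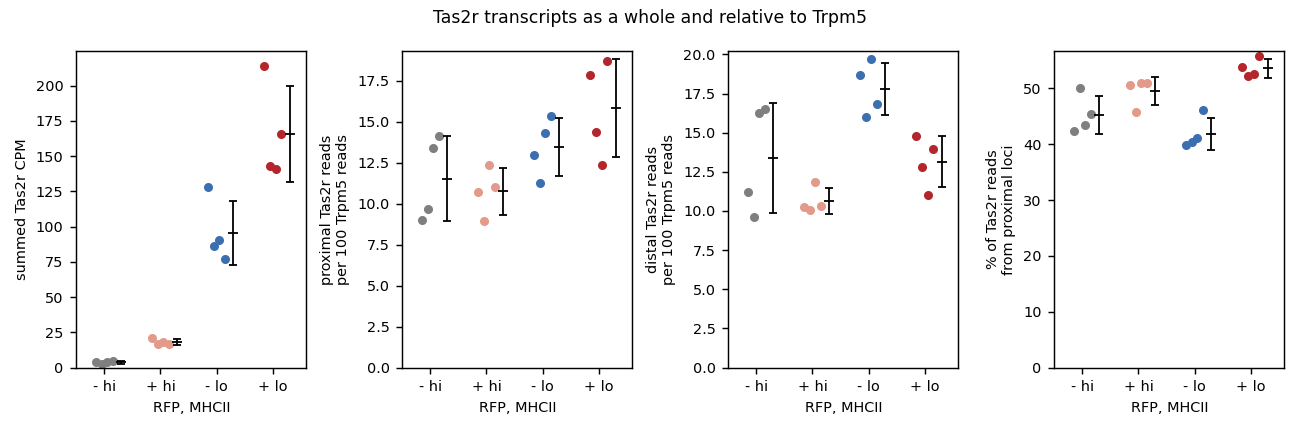
Per library (points, with mean and SD), from left to right: summed Tas2r CPM, proximal and distal Tas2r reads per 100 Trpm5 reads, and the percentage of Tas2r reads from the proximal loci, by population (x axis; - and + for RFP, hi and lo for MHC class II). The RFP- and RFP+ MHCIIlo points separate in every panel but that of the proximal reads, where they overlap.

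Against the unit of Dclk1 reads, RFP- MHCIIhi differed from the rest. Per 100 Dclk1 reads there were 6.53 to 12.6 Tas2r reads in RFP- MHCIIhi, 17.3 to 21.1 in RFP+ MHCIIhi, 17.2 to 23.1 in RFP- MHCIIlo, with 18.7 to 27.0 in RFP+ MHCIIlo. The first did not overlap with the others, which overlapped with each other. Per 100 reads of the whole tuft list the means were 0.642 ± 0.164, 1.80 ± 0.133, 3.85 ± 0.426 and 3.58 ± 0.457 Tas2r reads in the same order. In MHCIIhi cells, and most in RFP- ones, this unit is weighted to Spib, as given above. A ratio to the list without Spib was not taken. Other cell states changed along with the label in MHCIIlo cells: all 8 cornified epithelium markers rose, the 5 tested basal mTEC markers fell, 5 of 6 mesenchymal markers fell, and of 4 endothelial markers 1 rose and 3 fell. Of 7 myeloid markers 5 rose and 0 fell, of 4 B cell markers 1 rose and 0 fell, and of 10 mature mTEC markers 3 rose and 5 fell. The summed mature mTEC markers were at 18300 to 22900 CPM in the MHCIIhi and 3110 to 7910 in the MHCIIlo populations. Their part in the taste receptor values was not tested.

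Other families of chemosensory receptors were detected for a smaller share of their genes. While 94.7% of the 38 taste receptor genes had 15 or more reads, 23.3% of 1166 olfactory receptor genes (Olfr), 6.32% of 174 Vmn1r and 22.3% of 121 Vmn2r vomeronasal receptor genes and 43.8% of 16 trace amine receptor genes (Taar) did. Of 25 tested olfactory receptor genes, 3 rose and 2 fell with the label in MHCIIlo cells, 2 rose and 8 fell with low MHC class II among RFP- cells, and 1 rose and 6 fell among RFP+ cells. Their medians were -0.37, -0.02 and -0.69, where those of the 28 tested taste receptor genes were 0.54, 4.63 and 3.05. Of Vmn2r genes 2 were tested, 1 of which rose with the label in MHCIIlo cells, and no Vmn1r or Taar gene was. Olfactory and vomeronasal families hold close copies, and reads shared among them were not measured.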

How the data were processed

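Per the labels' protocols, poly(A) RNA of 16 sorted samples was amplified with NuGen Ovation V2 and prepared for sequencing with Nextera XT, a kit that does not mark strand. The authors deposited raw read counts per Ensembl gene, 1 table per library. STAR, GRCm38 and DESeq2 are named in the submitters' processing notes, without versions. For the counting tool, the annotation release and the use of strand, the entry is "not given in the sources used here". Symbols came from GENCODE (GRCm38) and matched 42462 of 43432 genes. Depth was 7.93 to 19.46 M counts per library. Intervals cover counting error only.

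Counts were tested with edgeR 4.0.16 (quasi-likelihood, R 4.3.3) in 1 fit of 4 populations. The filter (filterByExpr, minimum count 10, minimum total 15) left 19617 genes, scaling was TMM, and Benjamini-Hochberg adjustment ran over all tested genes of a contrast at a threshold of 0.05. CPM values use TMM library sizes, and summed levels and ratios carry no test. Alternatives were DESeq2 1.42.0, limma-voom 3.58.1, RLE scaling, no filter, the compared populations alone, a replicate block and leaving out libraries. Replicate pairs differed by more than sampling noise (chi-square per degree of freedom 3.18 to 36.78 over 24 pairs), so none was counted as 1 sample. Members and lists were chosen with earlier results of these data known. Values by library, for the populations under discussion, are given for the Tas1r genes, the 6 Tas2r genes of highest mean CPM, Tas2r126, Tas2r135 and Tas2r143, and the tested Tas2r genes with the largest and smallest label difference in MHCIIlo cells. Another 5 symbols of the family, all pseudogenes, were not analysed here.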

Additional observations from a re-analysis of the deposited data

Results flagged for a closer look

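In 4 groups of 4 libraries, of 64 checked, 1 library lay far from the rest, by a gap to its neighbour past Dixon's 95% critical value. Chance gives such a gap in about 1 of 20 groups. Replicate 1 was the high library for Tas1r3 in RFP- MHCIIhi (5.80 CPM), for Tas2r108 in RFP- MHCIIlo (12.1 CPM) and for Tas2r123 in RFP- MHCIIlo (3.61 CPM). For the percentage of Tas2r reads from the proximal loci, RFP+ MHCIIhi replicate 2 was low (45.8%).

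For 4 of the genes described by library, the label effect differed between the MHC class II gates by an interaction test (edgeR's quasi-likelihood test, adjusted): Tas2r108 by -1.83, Tas2r105 by -1.74, Tas2r137 by -1.55 and Tas2r123 by -3.05 on the log2 scale, each smaller in MHCIIlo cells. Limma-voom did not call the difference of Tas2r137 (adjusted p = 0.096) or Tas2r123 (0.066), and without RFP+ MHCIIhi replicate 1 that of Tas2r123 had an adjusted p of 0.053.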

How the results depend on the processing

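Of the alternatives to counts of called members, summed levels and ratios, 213 were labelled as kept and 13 as moved. A sum or ratio was kept when its mean shifted by less than its SD. Leaving out 1 library cannot shift a mean that far, so such alternatives could only be labelled as kept. For single genes, 901 alternatives kept direction and call, 22 gained a call, 16 lost it and 12 turned direction. With only the 2 populations compared in the fit, 8 members rose with the label in MHCIIhi cells, all that were then tested. Without a filter on low counts, 1 member fell with the label in MHCIIlo cells and 1 with low MHC class II among RFP- cells. Without RFP+ MHCIIlo replicates 1 and 4, 30 members were tested. Of these, 7 rose and 1 fell with the label in MHCIIlo cells, and 16 had a negative difference of label effects. Leaving out Tas2r108, an alternative to the proximal share that was chosen after seeing the data, moved that share to 39.6% in RFP- MHCIIhi, 36.9% in RFP+ MHCIIhi, 35.0% in RFP- MHCIIlo and 43.5% in RFP+ MHCIIlo, and Tas2r reads per 100 tuft marker reads to 1.44 in RFP+ MHCIIhi and 2.94 in RFP+ MHCIIlo. Leaving out each library in turn left 28 or 29 members tested. Of these, 8 to 13 were higher with the label in MHCIIlo and 17 to 20 in MHCIIhi cells. With low MHC class II, 28 to 29 were higher in RFP+ and in RFP- cells, and 8 to 13 had a negative difference of label effects. Directions turned for uncalled values: Tas2r123 with the label in MHCIIlo cells without RFP+ MHCIIlo replicate 4 (0.03, in a range of -0.48 to 0.03 over single libraries left out), and the difference of label effects for Tas2r126 (limma-voom -0.07, without RFP- MHCIIhi replicate 2 -0.80, without RFP+ MHCIIhi replicate 2 -0.03, range -0.80 to 0.62), Tas2r135 (0.00 without RFP- MHCIIlo replicate 4, 0.13 and 0.11 without RFP+ MHCIIhi replicates 3 and 4, 0.03 and 0.15 without RFP+ MHCIIlo replicates 3 and 4, range -0.91 to 0.15) and Tas2r143 (limma-voom 0.13, without RFP- MHCIIhi replicate 1 0.00, without RFP+ MHCIIhi replicate 2 0.04, range -0.93 to 0.04). The cause was not tested. Whether replicate numbers pair the samples was not settled. Correlations of same-numbered deviations were weak, from -0.008 to 0.129. In RFP- MHCIIlo against RFP- MHCIIhi each library correlated best with the one of its own number, and in the other comparisons only some did. With the replicate block 28 members were tested, and 13 rose with the label in MHCIIlo and 19 in MHCIIhi cells. All 28 rose with low MHC class II in RFP+ and in RFP- cells, 0 fell in any of these, and 13 had a negative difference of label effects. Shares over all genes were not computed for the replicate block, for the 2 populations alone or for most fits with libraries left out. In RFP- MHCIIhi, 38 to 78 Tas2r reads per library limit every value of a single bitter receptor.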
